A study of Mus musculus with 24 samples.

Results

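Apolipoprotein L genes were followed in conventional dendritic cells (cDC) of the mouse spleen. The account covers 4 genes, Apol6, Apol7c, Apol8 and Apol10b, out of 19938 genes that had a probe set naming a single gene on these arrays. Each has exactly 1 such probe set (10425031 for Apol6, 10430186 for Apol7c, 10430195 for Apol8 and 10430190 for Apol10b). They were chosen by their log2 levels over the groups of this same study, so their levels and differences are given as a description, with no p-value. Where a fit over all genes is said to call some of them, that only places them against the share of all genes called, and nothing is read from the call. The values are log2 expression values that the authors normalised by RMA (robust multi-array averaging), per the submitters' processing notes. The study compared 24 arrays in 8 groups of 3, made by crossing subset, strain and injection. The groups were CD8+ cDC of NOD mice after CpG-A, CD8+ cDC of NOD mice after PBS, CD8+ cDC of C57BL/6 (B6) mice after CpG-A and after PBS, and CD11b+ cDC in the same 4 combinations. All mice were females aged 8 to 10 weeks, all spleens were taken 12 h after the injection, and all cells were sorted as CD11c+. NOD/ShiLt mice develop autoimmune diabetes spontaneously, and B6 served as the control strain. CpG-A is a DNA oligonucleotide that stimulates Toll-like receptor 9 (TLR9), and PBS is the buffer control. Nothing in the labels ties the 3 arrays of a group to separate mice, so a p-value measures only the spread between these arrays, which may be technical.

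Apolipoprotein L proteins are mostly intracellular proteins that bind lipids and insert into membranes. Human APOL1, the secreted member that lyses trypanosomes, forms channels in membranes, and human members of the family are induced by interferon and other inflammatory signals. CD8+ cDC (cDC1) are the subset that is most efficient at presenting ingested antigen to CD8+ T cells, and mouse APOL7C has been described as a protein that is recruited to their phagosomes and permeabilises them. CpG-A drives type I interferon through TLR9 and IRF7, mainly in plasmacytoid dendritic cells.

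The 4 genes lie in 1 cluster on mouse chromosome 15, from which the promoter sequences below are shown because the genes that did and did not differ between the groups lie side by side there. In RefSeq's annotation of GRCm38.p6 the cluster spans 0.712 Mb, chr15:77045050-77757062, and holds 13 Apol entries, 12 of them protein coding. Apol6 lies at chr15:77045050-77057108, Apol7c at chr15:77524852-77533335, Apol10b at chr15:77584154-77598542 and Apol8 at chr15:77745109-77757062. Where in a gene the probes of each probe set fall was not used here. RefSeq's promoter table listed 3 of the 4 genes (Apol6 was not in it). The sequences run 5′ to 3′ in the gene's direction, over 260 bases that end 10 bases past the listed start, in the GRCm38.p6 build, and capitals mark matches to the core of the interferon-stimulated response element (ISRE, GAAANNGAA or its reverse complement). They are reference sequence, and the sequence of the NOD strain was not used here. The windows are chr15:77533306-77533565, minus strand, for Apol7c; chr15:77596116-77596375, minus strand, for Apol10b; chr15:77757001-77757260, minus strand, for Apol8; chr15:77447451-77447710, minus strand, for Apol7b; and chr15:77698639-77698898, plus strand, for Apol7e. Apol7b and Apol7e are close relatives of Apol7c.
Apol7c: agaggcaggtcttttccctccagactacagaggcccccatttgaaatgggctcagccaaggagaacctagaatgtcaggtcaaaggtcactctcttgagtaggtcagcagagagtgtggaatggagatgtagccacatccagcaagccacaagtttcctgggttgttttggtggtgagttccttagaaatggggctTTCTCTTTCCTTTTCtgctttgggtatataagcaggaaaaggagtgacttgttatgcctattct
Apol10b: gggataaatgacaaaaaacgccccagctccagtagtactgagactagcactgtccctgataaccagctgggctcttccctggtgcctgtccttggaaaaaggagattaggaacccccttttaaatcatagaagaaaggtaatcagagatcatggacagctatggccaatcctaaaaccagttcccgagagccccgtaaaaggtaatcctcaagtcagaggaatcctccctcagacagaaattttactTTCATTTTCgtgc
Apol8: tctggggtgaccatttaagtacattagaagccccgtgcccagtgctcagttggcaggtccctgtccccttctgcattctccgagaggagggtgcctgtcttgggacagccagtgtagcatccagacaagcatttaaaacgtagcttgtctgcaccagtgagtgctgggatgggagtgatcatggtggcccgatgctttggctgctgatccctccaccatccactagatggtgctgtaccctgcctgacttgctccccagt
Apol7b: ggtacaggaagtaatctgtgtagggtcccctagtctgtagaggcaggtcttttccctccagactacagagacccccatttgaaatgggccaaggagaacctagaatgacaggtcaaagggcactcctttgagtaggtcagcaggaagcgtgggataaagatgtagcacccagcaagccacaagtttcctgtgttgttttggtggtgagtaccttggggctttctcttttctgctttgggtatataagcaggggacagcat
Apol7e: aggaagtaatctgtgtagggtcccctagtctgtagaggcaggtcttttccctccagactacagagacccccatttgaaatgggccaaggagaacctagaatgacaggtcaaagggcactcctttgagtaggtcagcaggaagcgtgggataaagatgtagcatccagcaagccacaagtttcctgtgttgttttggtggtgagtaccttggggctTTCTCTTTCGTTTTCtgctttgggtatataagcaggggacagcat

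Apol7c held 2 overlapping ISRE core matches, at bases -54 to -46 and -48 to -40 from the listed start, and Apol7e held 2 at -35 to -27 and -29 to -21. Apol7b, whose 300-base window was 96.1% identical to that of Apol7e, held none. Apol10b had a single match from -3 to 6, which spans the listed start, and Apol8 had none of the 5 motifs searched. The whole windows of Apol10b and Apol7e lay inside the annotated gene spans, so their listed starts are not the 5′ ends of those spans. Of the 11 Apol genes with a listed promoter the ISRE core was in 8, among them Apol10a (-50 to -42), which stayed below the array's median on every array, and also Apol9a, Apol9b, Apol11a and Apol11b. The search covered both strands of the whole 300-base window (250 bases before the listed start and 50 after). Of 32851 promoters of this length, 8.56% held the ISRE core, and the shares for the others were 8.3% for the GAS element TTCNNNGAA, 8.24% for the ETS-IRF composite core GGAANNGAA, 4.36% for the NF-kB core GGGNNTTTC and 7.81% for the AP-1 site TGANTCA. The ISRE core and the ETS-IRF core share letters, so 1 stretch can match both. An NF-kB core overlapped the first ISRE match by 3 bases in Apol7c (-60 to -52) and Apol7e (-41 to -33) and stood at -36 to -28 in Apol7b, and none of the other 3 motifs matched in these 3 genes. The windows of Apol7c and Apol10b were 48.3% identical, and those of Apol8 and Apol10b 51.3%.

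The group means of Cd8a, Itgam and Clec4a4 separated the subsets as labelled. Cd8a averaged 11.06 to 11.52 in the 4 CD8+ groups and 5.44 to 8.38 in the 4 CD11b+ groups, on the log2 scale used throughout. Itgam, which encodes CD11b, averaged 4.83 to 5.07 in the CD8+ groups and 7.02 to 9.0 in the CD11b+ groups, and Clec4a4 averaged 3.64 to 5.13 in the CD8+ groups and 7.23 to 9.08 in the CD11b+ groups. CpG B6 CD11b+ cDC had the highest Cd8a and the lowest Itgam and Clec4a4 of the CD11b+ groups. Its NK cell markers stood at a mean level of 9.67 to 10.8. Itgax, which encodes CD11c, was lower after CpG in both subsets of both strains, for example 8.59 against 10.63 in B6 CD8+ cDC. The arrays of CpG-injected NOD CD8+ cDC differed most among themselves, with values of 53.5, 32.5 and 17.4 on the first principal component (47.9% of the variance) in replicates 1, 2 and 3. In sorted cells measured in bulk, fewer cells of a type and less RNA per cell cannot be told apart.

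Apol7c had the widest spread of group means of the 4 genes, 7.66 log2 units, against 4.01 for Apol10b. Probe sets bind with different strength, so levels are not compared between genes. In CD8+ cDC its values were 10.99, 10.23 and 10.08 in NOD mice after CpG and 9.20, 8.06 and 8.25 in NOD mice after PBS. In CD8+ cDC of B6 mice they were 12.69, 12.47 and 12.48 after CpG and 12.32, 11.98 and 12.29 after PBS. Every NOD array of this subset thus lay below every B6 array, and within each strain the CpG arrays lay above the PBS arrays.

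CD11b+ cDC of NOD mice gave 4.85, 4.79 and 5.32 after CpG and 5.09, 4.40 and 5.17 after PBS. CD11b+ cDC of B6 mice gave 11.88, 11.53 and 11.85 after CpG and 11.21, 10.23 and 10.98 after PBS. All 6 NOD arrays of this subset lay below the median of their array (5.79 to 5.87 over the 24 arrays), and all 6 B6 arrays lay far above it. In order, the group means of Apol7c were highest in CpG-injected B6 CD8+ cDC (12.55 ± 0.12), followed by PBS B6 CD8+ (12.19 ± 0.19), CpG B6 CD11b+ (11.75 ± 0.19), PBS B6 CD11b+ (10.81 ± 0.51), CpG NOD CD8+ (10.43 ± 0.49) and PBS NOD CD8+ (8.50 ± 0.61), and lowest in CpG NOD CD11b+ (4.99 ± 0.29) and PBS NOD CD11b+ cDC (4.89 ± 0.43; SD, n = 3 each). Neighbours in this order did not overlap, except PBS B6 CD11b+ with CpG NOD CD8+ and the last 2 groups with each other.

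**Figure D1:**
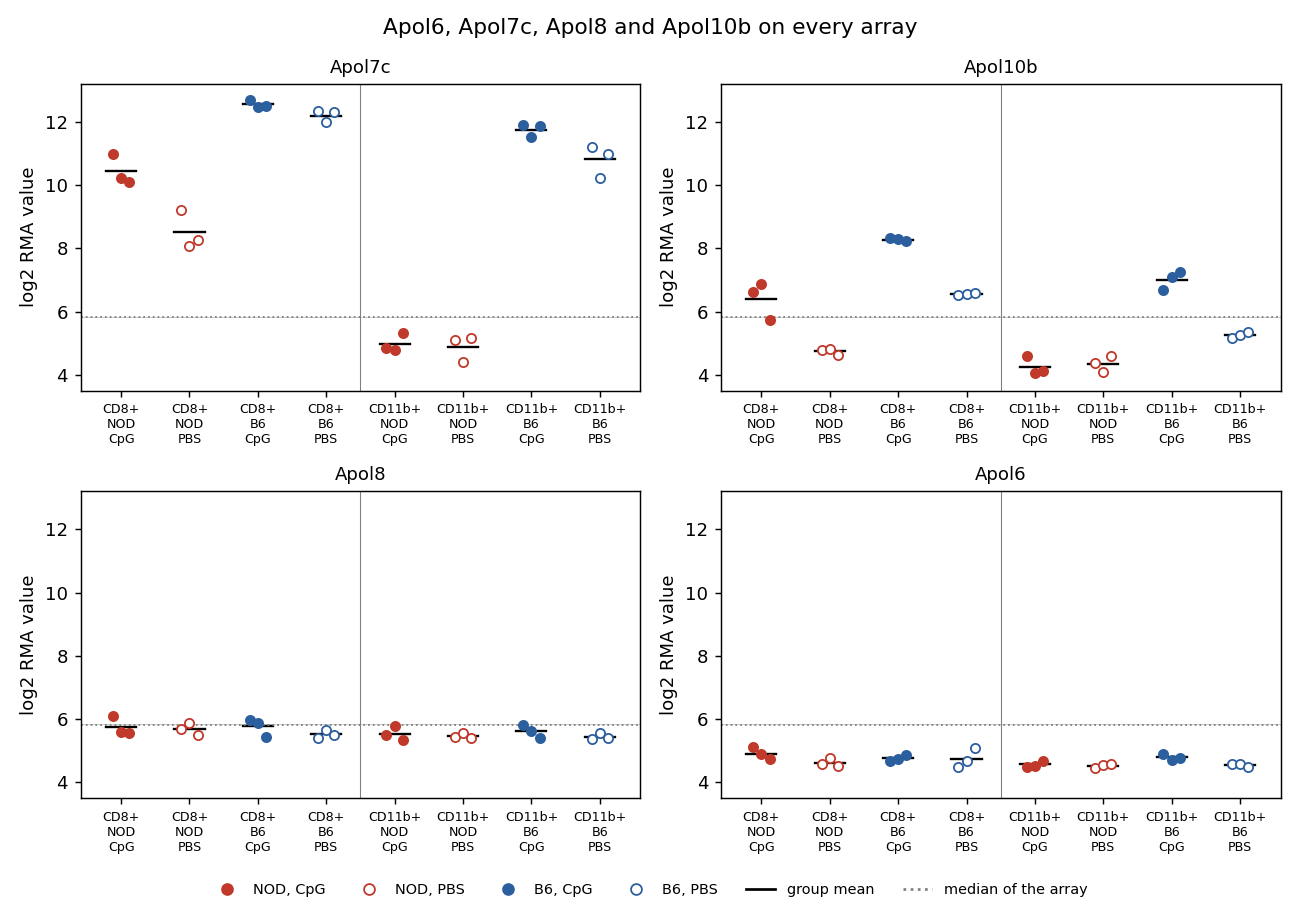
Log2 RMA value (vertical axis) of Apol7c, Apol10b, Apol8 and Apol6 on each of 24 arrays, by subset, strain and injection (horizontal axis); points are arrays, bars are means of 3, and the dotted line is the median of the arrays. Apol7c is at 8.06 or above in 6 groups and at 5.32 or below in both NOD CD11b+ groups, and Apol8 and Apol6 stay between 4.45 and 6.11 everywhere.

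Apol10b was above the array's median on 11 of 24 arrays. In CD8+ cDC of NOD mice its values were 6.61, 6.86 and 5.74 after CpG and 4.78, 4.81 and 4.64 after PBS, and in CD8+ cDC of B6 mice they were 8.32, 8.28 and 8.22 after CpG and 6.53, 6.57 and 6.60 after PBS. The CpG arrays stood above the PBS arrays in both strains, and the CpG arrays of NOD overlapped the PBS arrays of B6. In CD11b+ cDC of NOD mice Apol10b gave 4.61, 4.05 and 4.13 after CpG and 4.38, 4.10 and 4.59 after PBS, which overlapped and all lay below the array's median. CD11b+ cDC of B6 mice gave 6.67, 7.08 and 7.24 after CpG and 5.18, 5.26 and 5.37 after PBS, with no overlap. Its group means ran from 8.27 ± 0.05 in CpG-injected B6 CD8+ cDC, through 7.0 ± 0.29 in CpG-injected B6 CD11b+ and 6.56 ± 0.03 in PBS B6 CD8+ cDC, to 4.26 ± 0.30 in CpG-injected NOD CD11b+ cDC (SD, n = 3 each).

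Apol8 and Apol6 varied little between the groups. Apol8 lay between 5.35 and 6.11 on all 24 arrays, was above the array's median on 4 of them, and had group means within 0.33 of each other; each group overlapped the next in the order of its levels. Apol6, whose human counterpart can trigger cell death when overexpressed, lay between 4.45 and 5.12, never exceeded the array's median, and had group means within 0.39 of each other. It therefore failed the filter of the fit (above the median on at least 3 of 24 arrays), so that 3 of the 4 genes are among the 11228 tested, and its differences come from the same fit run without the filter. Counts of called genes below are given out of the 4 genes, of which Apol6 could not be called.

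The first comparison asked which genes differed between NOD and B6. A gene was called where limma's Benjamini-Hochberg adjusted p over the 11228 genes was under 0.05. Of the 4 genes, 2 were called in each of the 4 settings, Apol7c and Apol10b, where 20.2% of all genes were called in CD8+ cDC after CpG, 3.62% in CD8+ cDC after PBS, 23.2% in CD11b+ cDC after CpG and 5.59% in CD11b+ cDC after PBS. The genes were chosen with these contrasts known, so nothing is read from the counts. In each setting both genes were lower in NOD.

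For Apol7c the difference of NOD minus B6 was -2.11 ± 0.28 (SE) in CD8+ cDC after CpG and -3.69 ± 0.28 in CD8+ cDC after PBS. In CD11b+ cDC it was -6.77 ± 0.28 after CpG and -5.92 ± 0.28 after PBS. All NOD CD11b+ arrays lay below the array's median, where a value may be background. The median is a cautious limit and not a measured background, so the 2 CD11b+ differences are differences of deposited values, and a fold is given only as a bound against the median. By that bound the Apol7c signal was at least 61.7-fold lower in NOD after CpG and at least 31.4-fold lower after PBS in this subset. The same probe set reached 10.99 in NOD CD8+ cDC, where it was also lower than in B6. Whether NOD sequence differs from the reference under the Apol probes was not looked up. Any part of such variants in the strain differences was not tested. For Apol10b the difference was -1.87 ± 0.21 in CD8+ cDC after CpG, -1.82 ± 0.21 in CD8+ cDC after PBS, -2.74 ± 0.21 in CD11b+ cDC after CpG and -0.91 ± 0.21 in CD11b+ cDC after PBS. Apol10b lay below the array's median on all NOD arrays of the last 3 settings, and by the same bound it was at least 1.66-fold lower in NOD CD8+ cDC after PBS and at least 2.28-fold lower in NOD CD11b+ cDC after CpG. In CD11b+ cDC after PBS all 6 arrays of both strains lay below the median, and no fold is given. Without replicate 2 of PBS NOD CD11b+ cDC the difference of -0.91 became -0.79 and was not called. Apol8 differed by -0.07 to 0.16 and Apol6 by -0.22 to 0.15 over the 4 settings. Apol8 was not called in any of them, and Apol6 was not among the genes tested.

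Markers of other cell types moved with some of these comparisons. The 9 cDC1 markers, among them Xcr1 and Clec9a, had mean levels of 7.45 to 7.72 in PBS NOD CD11b+ cDC and 7.62 to 7.84 in PBS B6 CD11b+ cDC, and of 10.87 to 10.95 in PBS NOD CD8+ and 10.71 to 10.86 in PBS B6 CD8+ cDC. Between PBS arrays of CD11b+ cDC 0 of the 9 were higher and 2 were lower in NOD, Cd8a by -1.52 ± 0.26 and Clec9a by -0.84 ± 0.17. After CpG the level was 9.39 to 10.48 in NOD CD8+ and 8.83 to 9.39 in B6 CD8+ cDC, with 7 of 9 higher in NOD (median difference 0.96). In CD11b+ cDC after CpG it was 7.34 to 7.43 in NOD and 6.88 to 7.24 in B6, with 5 of 9 higher and 1 lower in NOD (median difference 0.49), and Cd8a was lower by -1.81 ± 0.26. NK cell markers differed more: their mean level over 9 genes was 6.30 to 6.60 in CpG NOD CD11b+ cDC and 9.67 to 10.8 in CpG B6 CD11b+ cDC, all 9 were lower in NOD, and after PBS it was 4.73 to 4.97 in NOD and 5.93 to 6.88 in B6, with 5 of 9 lower in NOD. B cell markers went the other way, with 8.41 to 9.41 in PBS NOD CD8+ and 7.09 to 7.95 in PBS B6 CD8+ cDC and 2 of 5 tested genes higher in NOD. Markers of red pulp macrophages were at 7.54 to 7.70 in PBS NOD CD11b+ and 8.18 to 8.94 in PBS B6 CD11b+ cDC, with 3 of 6 tested genes lower in NOD. Over all genes 12.4% were higher and 7.84% lower in NOD CD8+ cDC after CpG, and 2.03% and 1.59% after PBS. In NOD CD11b+ cDC 13.9% were higher and 9.22% lower after CpG, and 2.41% and 3.18% after PBS. The part of these cell types in the Apol differences was not tested.

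The second comparison asked how the genes responded to CpG-A. Of the 4 genes, limma called 2 in NOD CD8+ cDC, 1 in B6 CD8+ cDC, 0 in NOD CD11b+ cDC (also 0 at an unadjusted p under 0.05) and 2 in B6 CD11b+ cDC, where 40.7%, 57.7%, 15.4% and 38.9% of all genes were called in that order. Apol10b was higher after CpG by 1.66 ± 0.21 in NOD CD8+, by 1.71 ± 0.21 in B6 CD8+ and by 1.73 ± 0.21 in B6 CD11b+ cDC (SE). The PBS arrays of NOD CD8+ and of B6 CD11b+ cDC all lay below the array's median, so the first and the last are bounds of at least 1.49-fold and at least 2.23-fold, and the sizes of the 3 responses cannot be compared. In NOD CD11b+ cDC its difference was -0.09 ± 0.21, but all 6 arrays lay below the median, so no size of response is read from it. Apol7c was higher by 1.93 ± 0.28 in NOD CD8+ and by 0.95 ± 0.28 in B6 CD11b+ cDC. Without replicate 2 of PBS B6 CD11b+ cDC, its lowest array (10.23), the B6 CD11b+ value of Apol7c became 0.66 and was not called. In B6 CD8+ cDC, where Apol7c was already at 12.19 after PBS, the difference was 0.35 ± 0.28 (95% interval -0.22 to 0.93) and was not called, although the CpG and PBS arrays did not overlap. A fit of only those 6 arrays, which has a smaller spread, called it. In NOD CD11b+ cDC the difference was 0.10 ± 0.28, again with all 6 arrays below the median. Apol8 differed by 0.07 to 0.25 over the 4 settings, without a call, and Apol6, which was not among the genes tested, by 0.01 to 0.29. Without replicate 3 of CpG B6 CD8+ cDC, Apol8 was called there, at 0.41. NK cell markers moved with CpG as well: 6 of 9 rose in NOD CD11b+ cDC and all 9 in B6 CD11b+ cDC, and 8 of 9 cDC1 markers fell in CD8+ cDC of each strain. Over all genes 9.7% rose in NOD CD11b+ and 15.9% in B6 CD11b+ cDC. In CD8+ cDC 25.5% of all genes fell in NOD and 36.6% in B6. The part of these markers in the Apol differences was not tested.

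**Figure D2:**
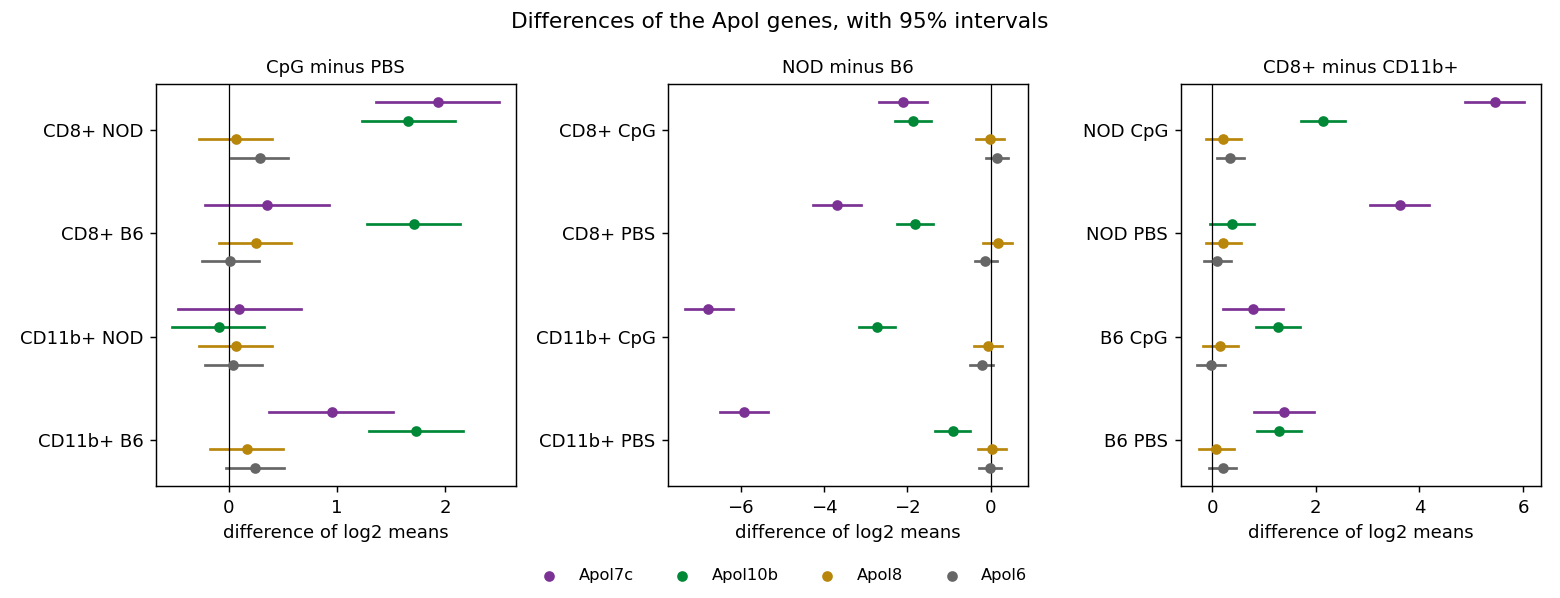
Differences of log2 means (horizontal axis) with 95% intervals for Apol7c, Apol10b, Apol8 and Apol6, as CpG minus PBS, NOD minus B6 and CD8+ minus CD11b+, each in 4 settings (vertical axis). Apol10b lies between 1.66 and 1.73 after CpG in 3 settings. Its PBS arrays in NOD CD8+ and B6 CD11b+ cDC are below the array's median, so the 3 sizes cannot be compared. In NOD CD11b+ cDC it lies at -0.09, with all its arrays below the median. Apol7c reaches -6.77 between NOD and B6 in CD11b+ cDC after CpG, with its NOD arrays below the median.

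The interaction terms of the same fit gave the difference between CpG responses. Those that involve NOD CD11b+ cDC, or Apol10b in PBS NOD CD8+ or PBS B6 CD11b+ cDC, rest on values below the array's median. The difference of the CpG responses, NOD minus B6, called 1 of the 4 genes in CD8+ cDC (4.02% of all genes were called) and 1 in CD11b+ cDC (4.38% of all genes). For Apol7c it was 1.58 ± 0.39 in CD8+ cDC and was called, and -0.85 ± 0.39 in CD11b+ cDC and was not. For Apol10b it was -0.05 ± 0.29 in CD8+ cDC (95% interval -0.65 to 0.56) and was not called, and -1.82 ± 0.29 in CD11b+ cDC and was called. The call of Apol7c in CD8+ cDC was lost without replicate 1 of PBS B6 (1.51), replicate 3 of PBS B6 (1.53), replicate 2 of CpG B6 (1.54), replicate 2 of PBS NOD (1.36) or replicate 3 of PBS NOD (1.45), and in a fit of only the 12 arrays of CD8+ cDC. The difference of the CpG responses, CD8+ minus CD11b+, called 2 of the 4 genes in NOD (6.8% of all genes), Apol7c at 1.83 ± 0.39 and Apol10b at 1.76 ± 0.29. In B6 it called 0 of the 4 genes, also at an unadjusted p under 0.05 in limma (13.4% of all genes), with Apol7c at -0.59 ± 0.39 and Apol10b at -0.02 ± 0.29.

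Between the subsets, 2 of the 4 genes were called in NOD after CpG (38.6% of all genes), 1 in NOD after PBS (21.8%), 2 in B6 after CpG (37.4%) and 2 in B6 after PBS (21.7%). Apol7c was higher in CD8+ than in CD11b+ cDC in all 4 settings, by 5.45 ± 0.28 in NOD after CpG, 3.62 ± 0.28 in NOD after PBS, 0.79 ± 0.28 in B6 after CpG and 1.39 ± 0.28 in B6 after PBS. Since the NOD CD11b+ arrays lay below the array's median, the NOD values are bounds of at least 24.7-fold after CpG and at least 6.36-fold after PBS. Its call in B6 after CpG was lost without replicate 1 of the CD8+ arrays (0.72) or replicate 2 of the CD11b+ arrays (0.68). Apol10b was higher in CD8+ cDC by 2.14 ± 0.21 in NOD after CpG, 1.28 ± 0.21 in B6 after CpG and 1.29 ± 0.21 in B6 after PBS. For the first and the last the CD11b+ arrays lay below the median, which leaves at least 1.51-fold and at least 1.65-fold. In NOD after PBS its difference of 0.39 ± 0.21 was not called, and all 6 values lay below the array's median. NK cell markers differed between the subsets too. In CD8+ cDC of B6 all 9 were lower after CpG and 3 of 9 after PBS, where 24.5% and 12.2% of all genes were lower. In CD8+ cDC of NOD 4 of 9 were lower after CpG, and 1 was higher after PBS, where 24.1% of all genes were lower and 10.6% higher in that order. The part of these cells in the subset differences was not tested. The comparisons of strain, injection and subset use the same arrays in turn and so are not independent of each other.

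The closest relatives were read through probe sets that name 2 genes. Apol7b and Apol7e share a pair of probe sets (10425040 and 10430179), as do Apol9a and Apol9b (10425049 and 10430174), so neither gene of a pair can be told from the other, and how far RNA of Apol7c binds to the Apol7b and Apol7e probes was not tested. Within a pair the 2 probe sets correlated at r = 0.96 and r = 0.98 over the 24 arrays, which share library and group. The first Apol7b and Apol7e probe set gave 4.91, 4.86 and 5.01 in CpG NOD CD11b+ cDC and 7.40, 7.88 and 7.53 in CpG B6 CD11b+ cDC, with no overlap.

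All listed probe sets were then tested alone in a second fit of 13247 probe sets, a choice made after seeing the data. In the order CD8+ after CpG, CD8+ after PBS, CD11b+ after CpG and CD11b+ after PBS, it called 20.5%, 3.75%, 23.0% and 6.17% of them between NOD and B6. In CD11b+ cDC after CpG the Apol7b and Apol7e probe sets were lower in NOD by -2.67 ± 0.27 and -2.37 ± 0.21 (limma, adjusted p = 1.61e-07 and 2.1e-08). They were also lower in NOD after PBS in CD11b+ cDC (-1.42 and -1.05, adjusted p = 0.00162 and 0.00251 in limma) and in CD8+ cDC (-1.51 and -1.05, adjusted p = 0.00111 and 0.00325). In CD8+ cDC after CpG the first was called (-0.94) and the second was not (-0.45). All NOD CD11b+ and PBS NOD CD8+ arrays of both probe sets lay below the array's median, where a value may be background. The differences that use these arrays are therefore differences of deposited values, and no fold is given.

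For CpG against PBS that fit called 41.3% of the probe sets in NOD CD8+, 58.4% in B6 CD8+, 16.5% in NOD CD11b+ and 40.1% in B6 CD11b+ cDC. Both Apol7b and Apol7e probe sets rose in B6 CD11b+ cDC (1.64 ± 0.27 and 1.76 ± 0.21) and in NOD CD8+ cDC (0.97 ± 0.27 and 0.82 ± 0.21), and neither passed in B6 CD8+ (0.40 and 0.21) or NOD CD11b+ cDC (0.38 and 0.44). All their NOD CD11b+ and PBS NOD CD8+ arrays lay below the array's median, so no size of response is read in these groups. In PBS B6 CD11b+ cDC each was above it on 1 array. Apol9a and Apol9b are interferon-induced genes, and their shared probe sets rose in both subsets of B6, by 0.71 and 0.89 in CD8+ and by 1.36 and 1.36 in CD11b+ cDC. In NOD the 2 Apol9 probe sets differed by 0.43 and 0.36 in CD8+ and by 0.38 and 0.44 in CD11b+ cDC, and none of these 4 values passed. The CpG response of NOD minus that of B6 in CD11b+ cDC, for which 3.62% of the probe sets were called, was -0.99 and -0.92 for the Apol9 probe sets (adjusted p = 0.0309 and 0.0453 in limma), and -1.26 and -1.32 for the Apol7b and Apol7e probe sets (adjusted p = 0.0749 and 0.0133). The terms of Apol7b and Apol7e use NOD CD11b+ arrays below the array's median, and all PBS arrays of the Apol9 probe sets lay below it too. The second Apol9 probe set was also below it on all NOD CpG arrays. Values there may be background, so the sizes of these CpG responses are not compared between the strains. Without CpG the Apol9 probe sets differed between NOD and B6 by -0.14 to 0.07 and were not called, from which no equal level is read. After CpG both were lower in NOD CD11b+ cDC, by -0.91 and -0.93 (adjusted p = 0.000658 and 0.00054 in limma). In CD8+ cDC after CpG the second was called (-0.52) and the first was not (-0.43).

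**Figure D3:**
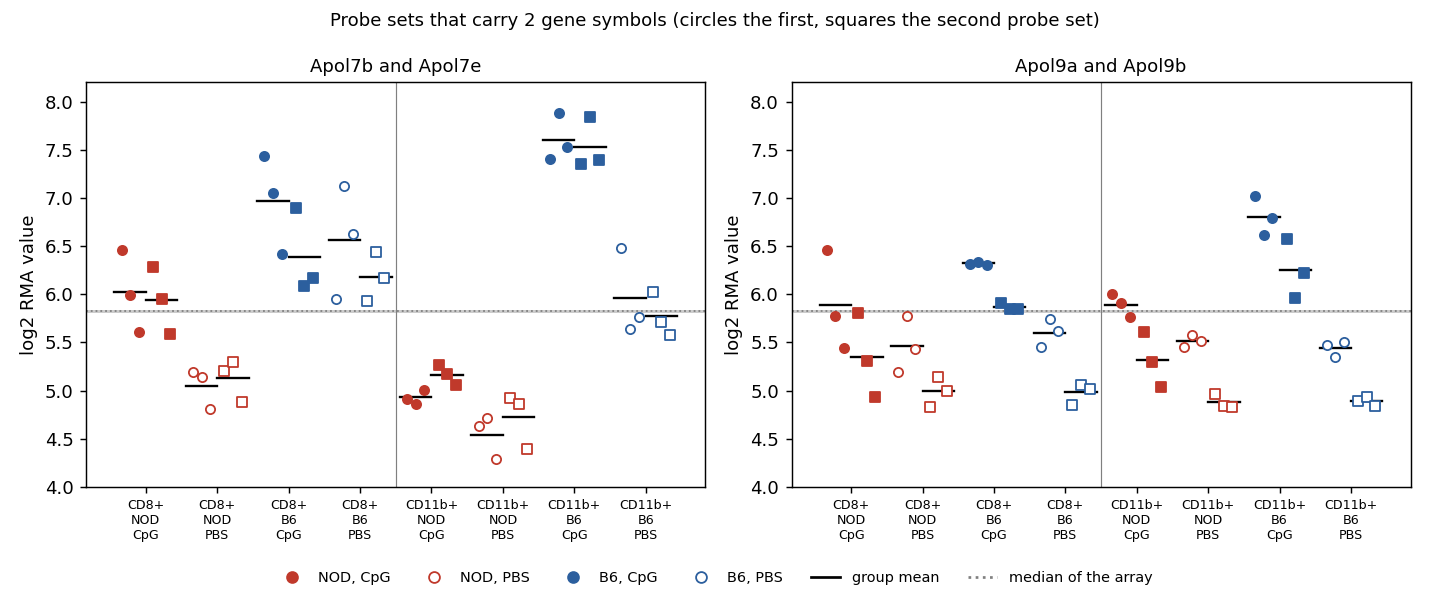
Log2 RMA value (vertical axis) on each array of the probe sets shared by Apol7b and Apol7e and by Apol9a and Apol9b, by subset, strain and injection (horizontal axis); circles are the first and squares the second probe set of a pair, and bars are means of 3. The mean of CpG B6 CD11b+ cDC is the highest of the 8 for each of the 4 probe sets, and NOD CD11b+ arrays of Apol7b and Apol7e are all at 5.26 or below.

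The rest of the cluster showed small values. Apol7a and Apol10a, read through single-gene probe sets, were above the array's median on 0 of 24 arrays and did not pass the filter, and Apol11a and Apol11b were not on a listed Apol probe set. In the fit without the filter Apol7a was higher after CpG by 0.44 ± 0.12 in NOD CD8+ and by 0.31 ± 0.12 in B6 CD8+ cDC, and higher in CD8+ than in CD11b+ cDC of NOD after CpG by 0.37 ± 0.12 (limma, adjusted p = 0.00841, 0.0474 and 0.0261). Between NOD and B6 Apol7a differed by -0.27 to 0.00 and Apol10a by -0.32 to 0.01, and none of these passed. Apol7d, annotated as a long noncoding RNA outside the cluster, and Apold1, a more distant relative, also stayed below the median on every array. On either side of the cluster the 5 nearest genes with a value served for comparison, Zfp251, Commd5, Rpl8, Zfp647 and 1110038F14Rik before it, and Myh9, Txn2, Foxred2, Eif3d and Cacng2 after it. Of these 10 genes, all tested, 0 were called between NOD and B6 in CD8+ cDC after CpG or PBS and in CD11b+ cDC after PBS. Over all genes 20.2%, 3.62% and 5.59% were called in that order. At an unadjusted p under 0.05 in limma the counts of the 10 genes were 3, 0 and 0. In CD11b+ cDC after CpG 1 was called, against 23.2% of all genes. It was Commd5, which was higher in NOD by 0.52 ± 0.15 (limma, adjusted p = 0.0119). Rbfox2, which lies between Apol6 and Apol7a, had a value but did not pass the filter.

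**Figure D4:**
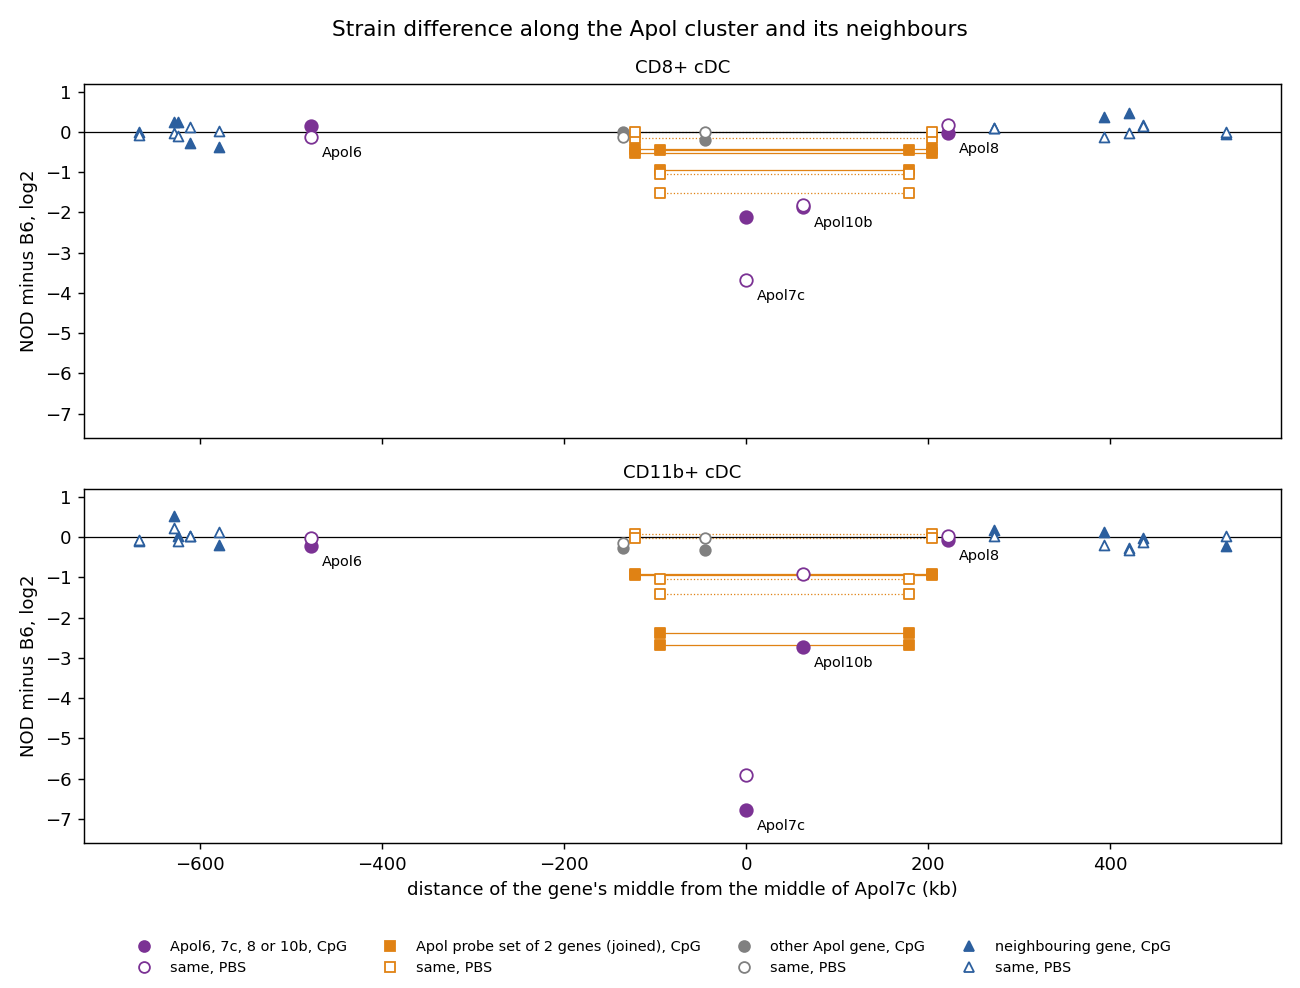
NOD minus B6 difference of log2 means (vertical axis) against the distance of each gene's middle from that of Apol7c in kb (horizontal axis), in CD8+ (top) and CD11b+ cDC (bottom), for CpG (filled) and PBS (open); squares joined by a line are 1 probe set drawn at both genes it names. Apol7c, Apol10b and the probe sets of Apol7b and Apol7e lie below 0. The probe sets of Apol9a and Apol9b lie at -0.91 and -0.93 in CD11b+ cDC after CpG. Apol6 and Apol8 at the ends of the cluster and the neighbouring genes lie within 0.52 of 0.

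Apol7c and Apol10b varied together over the 24 arrays (Pearson r = 0.85), and Apol8 with Apol7c hardly (r = 0.23). Outside the family the 5 genes most like Apol7c over the 24 arrays were Apobec3 (r = 0.90), a restriction factor against retroviruses, Gsr (0.88), H2aw (0.87), Pfkp (0.87) and Slc4a8 (0.86). Apobec3 and Slc4a8 also lie on chromosome 15, and Gsr, H2aw and Pfkp lie on chromosomes 8, 11 and 13. The share of all tested genes on chromosome 15 was not counted, so nothing is read from these places. Apobec3 averaged 9.25 in NOD and 11.63 in B6 CD11b+ cDC after CpG, and 8.47 in NOD and 10.79 in B6 CD11b+ cDC after PBS. Most like Apol10b were Scpep1 (0.95), Acadl (0.95), a mitochondrial enzyme of fatty acid oxidation, Abcg1 (0.94), a cholesterol exporter, Tspan3 (0.93) and Cd8b1 (0.91). Cd8b1 averaged 7.51 in CpG NOD CD8+ and 8.92 in CpG B6 CD8+ cDC, and 5.81 in CpG NOD CD11b+ and 8.06 in CpG B6 CD11b+ cDC. For Apol8 the highest r was 0.84 (Cgref1) and for Apol6 0.79 (Rprml), over value ranges of 0.52 and 0.97 log2 units. These correlations share groups and arrays and are a description of likeness.

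Signalling from TLR9 and interferon was read from 24 genes, 20 of them tested. After CpG 11 rose and 3 fell in NOD CD8+ cDC, 12 rose and 4 fell in B6 CD8+, 10 rose and 0 fell in NOD CD11b+, and 14 rose and 2 fell in B6 CD11b+ cDC. Over all genes 15.1%, 21.1%, 9.7% and 15.9% rose and 25.5%, 36.6%, 5.73% and 23.0% fell in the same order. The list's median difference was 0.44, 0.55, 0.44 and 0.77, against -0.08, -0.10, -0.04 and -0.07 for all genes. Irf7, the transcription factor that drives type I interferon, rose by 4.04 ± 0.14 in NOD CD11b+ and 3.23 ± 0.14 in B6 CD11b+ cDC (limma, adjusted p = 2.64e-15 and 5.59e-14). After PBS Irf7 was lower in NOD by -1.01 ± 0.14 in CD11b+ cDC (8.06 in NOD and 9.07 in B6; adjusted p = 2.73e-05 in limma) and by -0.64 ± 0.14 in CD8+ cDC (adjusted p = 0.00645). After CpG it stood at 12.10 in NOD and 12.30 in B6 CD11b+ cDC, which was not called. Usp18, a feedback inhibitor of the interferon receptor, rose by 2.66 ± 0.13 in NOD CD11b+ and 2.95 ± 0.13 in B6 CD11b+ cDC. Both rises passed in NOD CD11b+ cDC. There Apol7c and Apol10b lay below the array's median on every array, so their responses are not compared with those of Irf7 and Usp18. Ifng was lower in NOD than in B6 CD11b+ cDC after CpG by -3.57 ± 0.22 (5.40 and 8.97; adjusted p = 4.68e-11), the same groups between which the NK markers differed.

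Of 8 tested genes whose proteins permeabilise or rupture membranes, 4 rose and 1 fell after CpG in NOD CD8+ cDC, and the same numbers held in NOD CD11b+ and B6 CD11b+ cDC. In B6 CD8+ cDC 4 rose and 2 fell. The shares of all genes are those given for the signalling list, 9.7% to 21.1% rising and 5.73% to 36.6% falling. Gsdmd, which forms the pores of pyroptosis, rose by 0.91 to 1.26 over the 4 settings, and Mlkl, the effector of necroptosis, by 0.92 to 2.31. Gsdme, another pore-forming gasdermin, fell in all 4 settings, by -1.10 ± 0.21 in NOD CD8+, -1.35 ± 0.21 in B6 CD8+, -0.84 ± 0.21 in NOD CD11b+ and -1.0 ± 0.21 in B6 CD11b+ cDC. Prf1, which is also among the NK markers, rose by 3.94 ± 0.22 in B6 CD11b+ cDC. Between NOD and B6 in CD8+ cDC after PBS limma called 0 of the 8 (also 0 at an unadjusted p under 0.05), where 3.62% of all genes were called. In CD11b+ cDC after PBS 2 of the 8 were lower and 0 higher in NOD, where 3.18% of all genes were lower and 2.41% higher. After CpG 1 was higher and 0 lower in NOD CD8+ cDC, and 1 was higher and 2 lower in NOD CD11b+ cDC (shares of all genes below). Among 17 tested genes of cross-presentation and class I loading, limma called 0 between NOD and B6 in CD8+ cDC after PBS (2 at an unadjusted p under 0.05), against the same 3.62% of all genes. In CD11b+ cDC after PBS, where 3.18% of all genes were lower, 2 were lower in NOD. These were Cybb, a subunit of the phagosomal oxidase (-1.05 ± 0.19), and Clec9a, a receptor for dead cells (-0.84 ± 0.17). After CpG 6 were higher and 1 lower in NOD CD8+ cDC, and 7 were higher and 1 lower in NOD CD11b+ cDC, led by Wdfy4, required for cross-presentation, in CD11b+ cDC (1.59 ± 0.17). Over all genes 12.4% were higher and 7.84% lower in NOD CD8+ cDC after CpG, and 13.9% and 9.22% in CD11b+ cDC after CpG. Wdfy4 and Clec9a are also among the cDC1 markers. Median differences of this list between NOD and B6 were 0.17 and 0.01 in CD8+ cDC after CpG and PBS and 0.13 and 0.03 in CD11b+ cDC after CpG and PBS, against 0.04, 0.01, 0.03 and 0.00 for all genes.

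Secreted apolipoproteins and lipid transport genes were read for comparison, and called members went both ways. Of 10 tested, 2 were lower and 0 higher in NOD in CD8+ cDC after PBS, and 3 were lower and 2 higher in CD11b+ cDC after PBS, where 1.59% and 3.18% of all genes were lower and 2.03% and 2.41% higher. The 2 higher in NOD were Lpl, the lipoprotein lipase (0.98 ± 0.15), and Pltp, a phospholipid transfer protein (0.96 ± 0.17). Apoe, the apolipoprotein that ferries lipid between cells, was lower in NOD in all 4 settings, by -1.40 ± 0.18 in CD8+ cDC after CpG, -2.89 ± 0.18 in CD8+ after PBS, -1.62 ± 0.18 in CD11b+ after CpG and -2.26 ± 0.18 in CD11b+ cDC after PBS (limma, adjusted p from 2.23e-10 to 9.55e-06). Abcg1 was lower in NOD by -1.32 ± 0.11 in CD8+ cDC after CpG, -0.65 ± 0.11 in CD8+ cDC after PBS, -1.01 ± 0.11 in CD11b+ cDC after CpG and -0.61 ± 0.11 in CD11b+ cDC after PBS, and was called in all 4 settings. Apoe and the Apol genes belong to unrelated protein families that share a name.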

How the data were processed

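Messenger RNA of sorted spleen cDC was measured on 24 arrays; per the labels' protocols 5 ng of total RNA was amplified and 2.5 µg of cDNA labelled. The deposited values are log2 values that the authors made by RMA, using Partek (version not given), per the submitters' processing notes; they run from 1.92 to 14.1 over 35556 probe sets. The array model named in the labels differs from that of the annotation matching the probe sets, so the model is unsettled. Of the probe sets 23410 were listed with genes (21789 with 1 symbol, 1621 with several) and 12146 stay without a name. Gene IDs gave current symbols for 21698. Each of 19938 genes was represented by its single-symbol probe set of highest mean.

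Genes above the array's own median (over listed probe sets) on at least 3 of 24 arrays were tested. limma 3.58.1 in R 4.3.3 (package data.table, version 1.17.8) estimated 1 mean for each group (16 residual degrees of freedom), with eBayes and its trend; 16 two-sided contrasts were each adjusted by Benjamini-Hochberg at 0.05. The fit was tested on simulated data with known changes. Promoters were aligned with Biopython 1.88. The number of arrays limits the precision.

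The 4 genes and the gene lists were chosen with earlier results of these data known. Genes named beside them are all other Apol genes, the 5 most alike in level, 5 neighbours on each side of the cluster, and up to 4 called genes per list and contrast with the largest change. Same-numbered arrays deviated together (every pair's correlation over 0.1) in 8 of the 12 comparisons of groups, for example 0.242 to 0.544 between NOD and B6 CD8+ cDC after CpG; the labels do not explain the numbers.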

Additional observations from a re-analysis of the deposited data

Results flagged for a closer look

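Interaction terms of the fit for Apol7c and Apol10b, the differences between CpG responses, passed its threshold in 4 instances. The genes were chosen by their levels over these same groups, so the values are a description. For Apol7c the CpG response was larger in NOD than in B6 CD8+ cDC by 1.58 ± 0.39 (1.93 and 0.35), with all 3 CpG arrays above all 3 PBS arrays in each strain. That call was lost without each of 5 single arrays in turn (1.36 to 1.54) and in a fit of only the 12 arrays of CD8+ cDC. For Apol10b it was smaller in NOD than in B6 CD11b+ cDC, by -1.82 ± 0.29 (-0.09 and 1.73). Within NOD it was larger in CD8+ than in CD11b+ cDC by 1.83 ± 0.39 for Apol7c (1.93 and 0.10) and by 1.76 ± 0.29 for Apol10b (1.66 and -0.09). The last 3 rest on values below the array's median: both genes lay below the array's median on all 6 NOD CD11b+ arrays, and Apol7c lay at 12.19 in PBS B6 CD8+ cDC. The part of these levels in the differences was not tested.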

How the results depend on the processing

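The differences of the 4 genes were recomputed 760 times, with no filter, a stricter filter, median centring, quantile normalization, eBayes without trend, averaging the probe sets of a gene, the replicate number as a block, only the groups compared, every listed probe set tested alone (added after seeing the data) and each array left out in turn. Of these 755 moved by less than the spread between replicates, 5 moved by more and 0 reversed; the 5 are all Apol10b without replicate 3 of CpG NOD CD8+ cDC, its low array, for example 2.00 in place of 1.66 for CpG in NOD CD8+ cDC.

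Counts of called Apol genes changed in 3 ways. With a filter on 12 of 24 arrays only Apol7c was tested, and the count was 1 for each strain comparison, for CpG in NOD CD8+ and B6 CD11b+ cDC, for the subsets in NOD after CpG and in B6 after either injection, and for the subset interaction in NOD, and 0 for CpG in B6 CD8+ cDC and for the strain interaction in CD11b+ cDC. In a fit of only the groups compared, it was 2 for CpG in B6 CD8+ cDC and 0 for the strain interaction in CD8+ cDC. With single arrays left out, the counts ran from 1 to 2 for CpG in B6 CD8+, CpG in B6 CD11b+, NOD against B6 in CD11b+ after PBS and the subsets in B6 after CpG, and from 0 to 1 for the strain interaction in CD8+ cDC.

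The replicate block changed no count of called Apol genes; with it the strain interaction of Apol7c in CD8+ cDC was 1.58 as without it. It called 728 and 766 genes for the strain interactions in CD8+ and CD11b+ cDC, against 451 and 492 without it. A fit of only the groups compared called 2584 genes for CpG in NOD CD8+ (4567 in the full fit), 390 between NOD and B6 CD8+ after CpG (2270), 2554 between the NOD subsets after CpG (4335), 164 and 945 for the strain interactions in CD8+ and CD11b+ (451 and 492) and 303 for the subset interaction in NOD (764).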
